A study of Rattus norvegicus with 8 samples.

Results

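B cells, the lymphocytes that carry surface antibody, were few in the dissociated rat spinal cord: 378 of 63769 cells within the quality limits, or 0.593%. A cell counted as a B cell when it had at least 5 UMIs (unique molecular identifiers, each standing for 1 captured transcript) of AABR07060872.1, at least 1 UMI of Cd79b and at most 5 UMIs of C1qa, C1qb and C1qc together. AABR07060872.1 is an unnamed rat gene, Cd79b encodes a signalling chain of the B cell receptor, and C1qa, C1qb and C1qc encode complement C1q, made by microglia and macrophages. The limits on quality were at least 500 UMIs and at most 10% of UMIs on mitochondrial genes, which 63769 of the 68658 deposited cells met. These 5 genes chose the cells, so their levels are given as a description only.

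The study compared female Wistar rats, 8-week by the labels, that had a weight of 10 g dropped on the exposed cord at vertebra T9 from 12.5 mm (mild), 25 mm (moderate) or 50 mm (severe), with sham rats that had the laminectomy alone. Cord tissue of 10 mm was taken at day 7 and sequenced with the 10x Genomics Chromium 3' kit. There were 8 libraries, 2 for each of 4 groups, and the labels do not say whether each library is 1 animal. The 378 B cells fell very unevenly among them, and only sham library 1 and both severe libraries held enough for a comparison of expression.

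A B cell senses antigen through its receptor, an antibody molecule (Ighm encodes the IgM heavy chain) held in the membrane beside CD79A and CD79B, and relays the signal through kinases such as Lyn, Syk and Btk. It takes up what the receptor binds and shows fragments of it to T cells on MHC class II, which in the rat is encoded by RT1-B and RT1-D genes and needs the invariant chain Cd74 for loading. The healthy cord parenchyma holds few B cells, which sit mainly in meninges, vessels and the marrow of the surrounding bone, and antibody made by B cells and plasma cells is known to accumulate after cord injury in rodents. In dissociated tissue, fewer cells of a type in the tissue and fewer cells of that type surviving dissociation cannot be told apart.

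Sham library 1 stood apart from the other libraries before any B cell was counted. It held 3966 cells with at least 100 UMIs of S100a8 and S100a9 (neutrophil granule proteins), and sham library 2 held 1. Among all cells other than B cells, S100a9 reached 41027 CPM in sham library 1 (CPM, the UMIs of a gene per 1000000 UMIs of the same cells) and 83.0 in sham library 2. The heat shock chaperone Hspa1b reached 2653 CPM in sham library 1 and 20.6 in sham library 2. With only 6 B cells in sham library 2, every comparison of expression below sets sham library 1 alone against the severe pair. A feature of that library and a feature of sham tissue cannot be told apart. No 2 libraries shared more than 37 cell barcodes, and no shared barcode was that of a B cell in both libraries. Up to 2 B cell barcodes of sham library 1 recurred among the cells of another library.

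B cells numbered 218 of 10736 cells in sham library 1 (2.03%, 95% Wilson interval 1.78 to 2.32%) and 6 of 2702 in sham library 2 (0.222%, 0.102 to 0.484%). The severe libraries held 35 of 4236 (0.826%, 0.595 to 1.15%) and 87 of 8997 (0.967%, 0.785 to 1.19%). Shares were lowest after mild and moderate injury. They were 0.140% (13 cells) and 0.0222% (2 cells) in the mild libraries, and 0.104% (12 cells) and 0.0691% (5 cells) in the moderate ones. The interval of sham library 2 overlapped those of mild library 1 and of both moderate libraries. Both severe shares lay above all 4 mild and moderate shares, with intervals that did not overlap, while the sham pair lay on either side of the severe pair. That order of sham and severe rested on the limit: with at least 20 UMIs of AABR07060872.1, sham library 1 fell to 0.401%, between severe library 1 (0.260%) and severe library 2 (0.578%). With 2 libraries a group, an exact permutation test cannot go below a two-sided p of 0.333, so no p is given for these shares. The intervals cover counting error only.

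**Figure D1:**
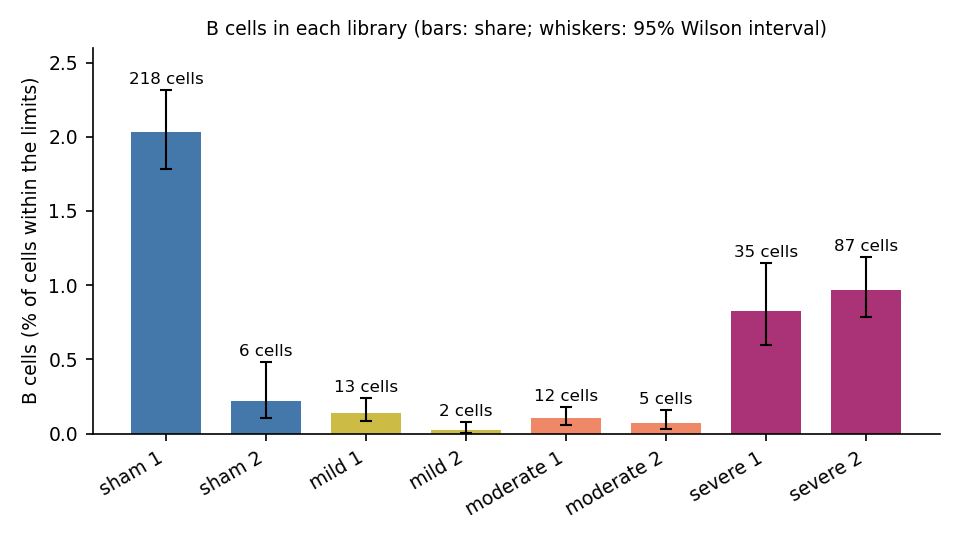
Share of B cells (vertical axis, % of cells within the quality limits) in each of the 8 libraries, with the number of B cells above each bar and 95% Wilson intervals as whiskers. Sham library 1 stands highest at 2.03%, the severe libraries reach 0.826 and 0.967%, and the other 5 libraries lie at or below 0.222%.

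The B cells were small cells by transcript number. Their median was 2876 UMIs and 1044 genes in sham library 1, 2122 UMIs and 969 genes in severe library 1, and 2559 UMIs and 992 genes in severe library 2. The median of all cells within the limits was 2971, 7633 and 12039 UMIs in these libraries, so the severe B cells were shallow beside their neighbours. The median B cell held 11, 15 and 24 UMIs of AABR07060872.1 and 2, 3 and 5 UMIs of Cd79b, in the same order. Summed over cells, the B cells gave 923349 UMIs in sham library 1, 102602 in severe library 1 and 321095 in severe library 2. The deepest sum, and so the least counting error, was that of sham library 1.

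Beside T cells, C1q-rich cells and S100a8/S100a9-rich cells, the label of B cells held for genes that the rule did not use. Cells with Siglech, described below, were not among these kinds of cells and also carried Ighm and Fcmr. Beside the rule's own genes, the genes that led the B cells over T cells, C1q-rich cells and S100a8/S100a9-rich cells of the same library included Ighm, Fcmr (the receptor for IgM), Tnfrsf13c (the receptor for the survival factor BAFF), Bank1 (a B cell scaffold protein), Ms4a1 (CD20) and Ebf1 (a factor that sets B cell identity). Ighm was at 1358 CPM in B cells of sham library 1, 2758 in severe library 1 and 2476 in severe library 2. Across the 3 libraries its level in B cells exceeded that in each of the 3 other kinds of cells by at least 5.30 on the log2 scale. The smallest such margin was 4.10 for Fcmr, 3.87 for Ms4a1 and 3.86 for Ebf1. These margins describe how far the cells stand from their neighbours, and no test was made, since the cells had been chosen by genes of the same libraries.

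Ighm had a UMI in 214 of 218, 33 of 35 and 86 of 87 B cells of sham library 1, severe library 1 and severe library 2. Ms4a1 had one in 143, 8 and 45 of these cells, and in 4 of the 38 B cells of the remaining libraries. At a common depth of 1000 UMIs a cell, Ms4a1 was seen in 27.6% of B cells in sham library 1 (95% Wilson interval 22.1 to 34.0%, median depth 2876 UMIs before thinning), 12.1% in severe library 1 (4.82 to 27.3%) and 24.1% in severe library 2 (16.4 to 34.1%). The intervals of the 3 libraries overlapped. In C1q-rich cells, which should lack the gene, the share at that depth was 0.182% in sham library 1, 0 of 444 cells in severe library 1 and 0.0466% in severe library 2, with median depths of 11879, 14419 and 19336 UMIs.

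**Figure D2:**
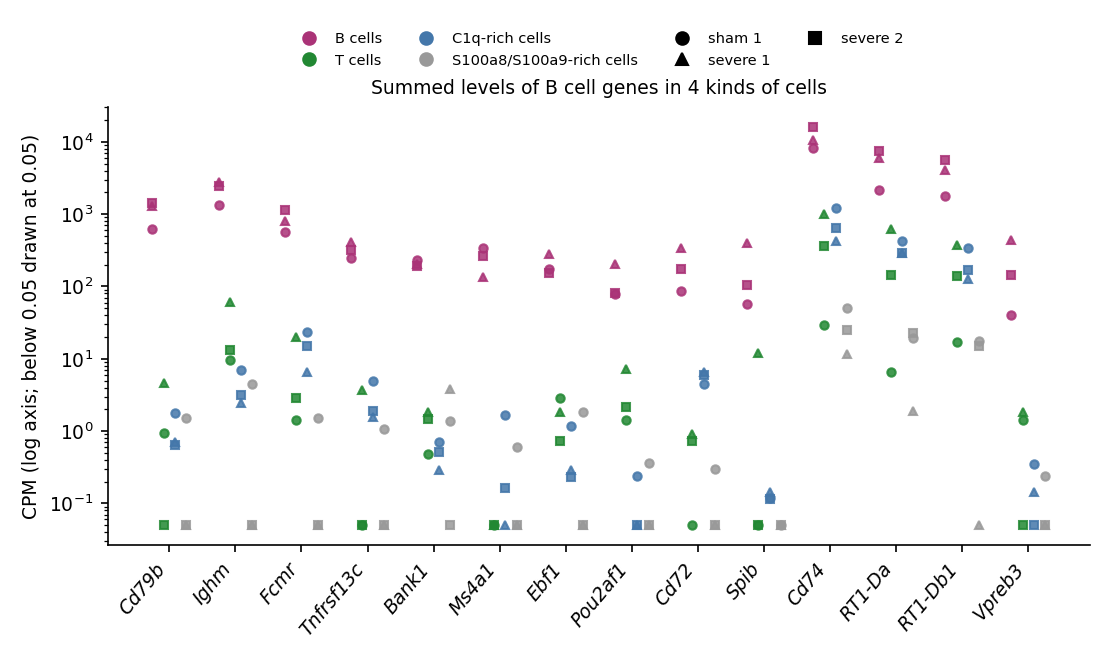
Summed level of 14 genes (vertical axis, CPM on a log axis) in B cells, T cells, C1q-rich cells and S100a8/S100a9-rich cells of sham library 1 (circles), severe library 1 (triangles) and severe library 2 (squares). For Ighm, Ms4a1 and Ebf1 the B cells of each library lie above all other kinds of cells, and Cd74, RT1-Da and RT1-Db1 also have signal in T cells and C1q-rich cells. Levels under the foot of the axis are drawn there.

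Plasma cells are the antibody-secreting end of the lineage. Prdm1 and Tnfrsf17, a factor and a survival receptor that define plasma cells, had 0 UMIs in the B cells of all 3 libraries, which allows levels of up to 3.25, 29.2 and 9.34 CPM. Jchain, which links antibody units, had 4, 3 and 3 UMIs. Of 11 plasma cell genes tested between severe and sham, 1 was lower and none higher, beside 3.84% lower and 1.16% higher among all genes tested, so the list lay near that share. That gene was Sec11c, a subunit of the signal peptidase, at 600 CPM in sham library 1 against 39.0 and 103 in the severe libraries (edgeR, log2 fold change -3.10, SE 0.79, adjusted p = 0.00289). The other 10 did not pass and went both ways: 5 of the 11 had positive values, and the median log2 fold change was -0.10. Mzb1, a chaperone of antibody assembly that B cells also express, was at 42.2, 224 and 96.5 CPM, with a UMI in 32 of 218, 12 of 35 and 18 of 87 B cells (log2 fold change 1.65, SE 0.76, edgeR adjusted p = 0.313). Herpud1, of the endoplasmic reticulum stress response, was at 36.8, 185 and 115 CPM (1.80, SE 0.77, edgeR adjusted p = 0.241). Pdia4, a folding enzyme of that compartment, was at 52.0, 29.2 and 9.34 CPM (-1.88, SE 0.95, edgeR adjusted p = 0.409).

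Most cells just outside the Cd79b limit carried a marker of another kind of cell in every library but sham library 1. With the other limits kept, 109 cells of severe library 1 and 103 of severe library 2 had at least 5 UMIs of AABR07060872.1 but none of Cd79b. Of these, 102 and 98 carried Siglech, a surface marker of plasmacytoid dendritic cells, and their median depth was 7522 and 7978 UMIs. Their Ms4a1 level was 2.35 and 4.20 CPM, far below the B cells' own. Ighm was at 557 and 553 CPM in them, against 2758 and 2476 in the B cells of these libraries. Fcmr was at 188 and 185 CPM, against 799 and 1140, so both genes were lower there but present. Siglech was likewise in 6 of 8 such cells of sham library 2, 78 of 79 and 25 of 25 of the mild libraries, and 58 of 62 and 30 of 33 of the moderate ones. In sham library 1 the matching 59 cells had no Siglech UMI, and their levels of Ms4a1 (273 CPM) and Ighm (1000 CPM) were close to those of its B cells (340 and 1358 CPM). Siglech also had a UMI in 2 of 13 B cells of mild library 1, 1 of 12 and 1 of 5 of the moderate libraries and 2 of 87 of severe library 2, and in none of the B cells of the other 4 libraries.

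At the AABR07060872.1 limit, 15 B cells of sham library 1 had exactly 5 UMIs, and 20 cells with 4 UMIs that met the other limits lay outside. Ighm was at 826 CPM in the former and 1833 in the latter, so the B cell signal did not stop at the limit. The corresponding numbers were 4 and 3 cells in severe library 1, and 3 and 1 in severe library 2. At the C1q limit only 1, 1 and 2 B cells of these libraries had 3 to 5 UMIs of C1q. Doublets were not removed by the rule: 29, 1 and 2 of these B cells fell within the 7.7% of cells with the highest Scrublet scores of their library, and 17 B cells of sham library 1 had at least 100 UMIs of S100a8 and S100a9, against 0 in every other library.

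Severe injury was compared with sham on the summed UMIs of the B cells, among libraries with at least 20 of them. The fit was edgeR's quasi-likelihood test with Benjamini-Hochberg adjustment. Of 4658 genes tested, 233 (5%) passed an adjusted p of 0.05. In severe B cells 54 of them (1.16%) were higher and 179 (3.84%) lower, and 563 had an unadjusted p under 0.05. The spread came from the severe pair alone, and sham library 1 was assumed to vary like them. With 1 residual degree of freedom, edgeR used a spread shared across genes. A disagreement between the severe libraries for a single gene therefore did not widen that gene's spread. No mild or moderate library reached 20 B cells, so the comparison of all injured libraries with sham was the same fit. DESeq2 called 50 genes in the same 3 libraries, 49 of them among the 233. With all 8 libraries and any number of B cells, edgeR called 0 of 488 genes tested, with 53 at an unadjusted p under 0.05.

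**Figure D3:**
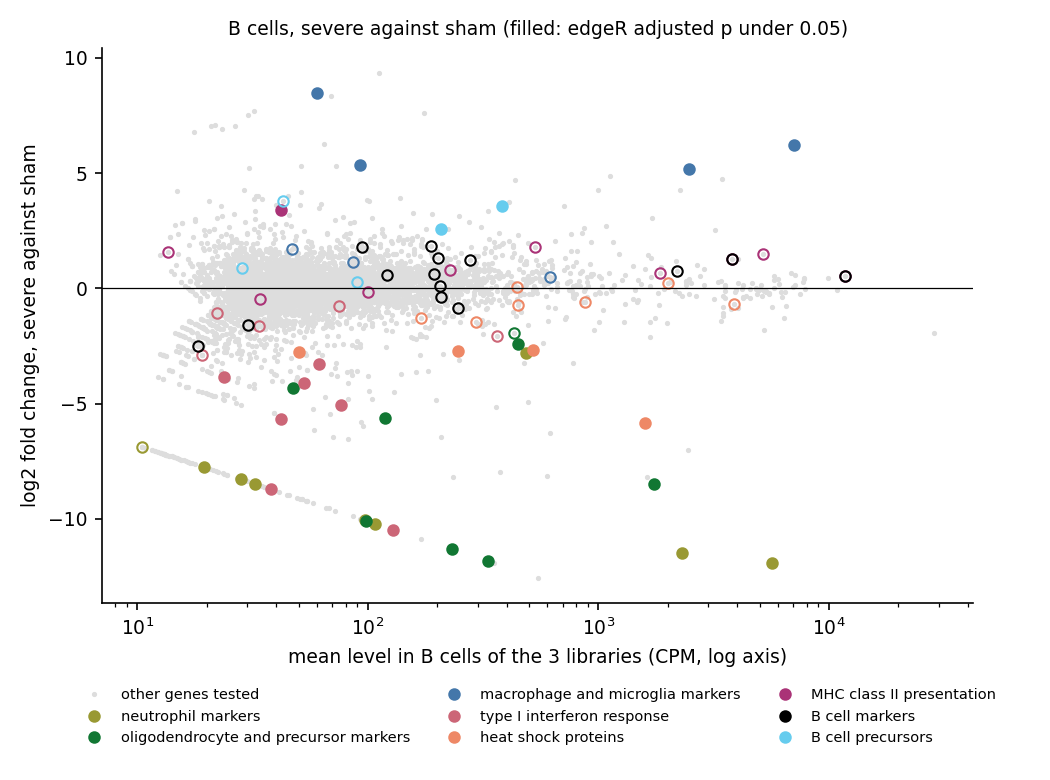
Log2 fold change in B cells, severe against sham (vertical axis), against the mean level of the 3 libraries (horizontal axis, CPM, log axis) for 4658 genes, with 8 gene lists in colour. Filled points passed an edgeR adjusted p of 0.05: neutrophil and oligodendrocyte genes lie far below 0, macrophage genes above, and all B cell markers (black) are open.

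B cell identity genes did not pass the test. None of 14 B cell markers or 21 genes of the receptor complex and its nearest signalling was called in either direction. Nor was any of 18 B cell transcription factors or 10 homing receptors. Of all genes tested 5% were called, so a count of 0 in lists of this size lies near that share. The median log2 fold changes of these lists were 0.59, -0.18, 0.37 and 0.60, beside -0.0030 over all genes tested. Of the 14 B cell markers 10 had positive values. Among the others, Pax5 had 36 UMIs in sham library 1, 1 in severe library 1 and 2 in severe library 2 (-2.50, SE 1.73). Cd22 had 45, 3 and 4 UMIs (-1.59, SE 0.95). Ighm had a log2 fold change of 0.77 (SE 0.65, edgeR adjusted p = 0.842). Ms4a1 was at 340 CPM in sham library 1, 136 in severe library 1 and 265 in severe library 2, and its log2 fold change was -0.86 (SE 0.77, edgeR adjusted p = 0.873). Cxcr4, the receptor that holds B cells in marrow, was at 298, 1043 and 402 CPM in the same order, with 1.04 (SE 0.83, edgeR adjusted p = 0.826). Standard errors of this size leave differences of several fold unresolved.

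Of 10 genes of MHC class II presentation tested, 1 (Cd86) was called, near the 5% of all genes tested, and 8 had a positive log2 fold change, with a median of 1.02. In CPM 7 of the 10 were higher in both severe libraries than in sham library 1, while RT1-DOb, Ctss and RT1-Db2 were not. RT1-Da, the alpha chain of RT1-D, was at 2153 CPM in sham library 1, 5955 in severe library 1 and 7384 in severe library 2. Its log2 fold change was 1.48 (SE 0.52, edgeR adjusted p = 0.0768). RT1-Db1, its beta chain, was at 1791, 4025 and 5540 CPM (1.27, SE 0.56, edgeR adjusted p = 0.279). Cd74 was at 8302, 10672 and 16089 (0.55, SE 0.37, edgeR adjusted p = 0.709). The groups did not overlap for these 3 genes, which was so for 65.9% of all genes tested. RT1-Da passed under 2 alternatives, both by edgeR, and under none of the others. With plain library sizes, which put the median of all genes at 0.15, its adjusted p was 0.00567. With libraries of at least 10 B cells it was 0.0468. DESeq2 gave RT1-Da an adjusted p of 0.747, and edgeR without the filter on low counts gave 0.897. With all libraries that held any B cell, its log2 fold change was only 0.556 (edgeR adjusted p = 0.946). Adding the replicate block there gave 0.593 (edgeR adjusted p = 0.974).

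The 6 B cells of sham library 2 held RT1-Da at 6676 CPM (65 UMIs of 9736) and Cd74 at 22083, both nearer to the severe B cells than to those of sham library 1. Over the 38 B cells of the 5 thinly filled libraries, RT1-Da was at 4174 and Cd74 at 15565 CPM. T cells of the same 3 libraries also held more class II RNA after severe injury. RT1-Da was at 6.66 CPM in T cells of sham library 1 against 617 and 144 in the severe libraries (edgeR in T cells, log2 fold change 5.60, SE 1.01, adjusted p = 0.049). All cells other than B cells had 81.0, 848 and 600 CPM of RT1-Da, in the same order. What part class II RNA from other cells has in the B cell values was not tested.

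No RT1-B or RT1-D gene was called, nor Cd74. The called member of the list was Cd86, not itself a class II gene but a costimulatory ligand that B cells raise on activation. It had 5 UMIs in the B cells of sham library 1 (5.42 CPM), 4 in severe library 1 (39.0) and 26 in severe library 2 (81.0), a log2 fold change of 3.39 (SE 0.93, edgeR adjusted p = 0.00775). The adjusted p was 0.944 with DESeq2. By edgeR it was 0.256 among cells of at most 10000 UMIs, 0.348 with C1q at 0 UMIs and 0.139 with 2 UMIs of AABR07060872.1. The log2 fold change lay between 2.70 and 3.40 in these fits. In all cells other than B cells Cd86 was at 7.87, 36.5 and 77.8 CPM, close to the B cell levels in each library. The 18 early activation genes tested went both ways, 10 with positive and 8 with negative values, and Jun alone was called, lower. Cd83, an activation marker of B cells, was at 291, 1014 and 972 CPM (1.60, SE 0.84, edgeR adjusted p = 0.437).

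The class II genes share a promoter element that binds the factor NF-Y, the Y box, and a class II promoter is active in B cells at rest. Stretches of 88 bases around the letters CTGATTGG are shown for 5 of the 6 class II genes tested in B cells whose promoters hold it, those that lay higher in both severe libraries. The sixth, RT1-Db2, had 6 UMIs in sham library 1, 0 in severe library 1 and 11 in severe library 2 and is not shown. Sequences are from RefSeq, build GRCr8, 5′ to 3′ on the gene's strand, with CTGATTGG in capitals. They are RT1-Da (chr20:4515313-4515400, plus strand), RT1-Db1 (chr20:4560208-4560295, minus), RT1-Ba (chr20:4576961-4577048, plus), RT1-Bb (chr20:4604145-4604232, minus) and RT1-DOa (chr20:4758496-4758583, minus).
RT1-Da: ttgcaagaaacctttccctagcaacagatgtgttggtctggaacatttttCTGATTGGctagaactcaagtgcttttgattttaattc
RT1-Db1: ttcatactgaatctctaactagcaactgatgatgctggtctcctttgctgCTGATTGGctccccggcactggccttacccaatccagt
RT1-Ba: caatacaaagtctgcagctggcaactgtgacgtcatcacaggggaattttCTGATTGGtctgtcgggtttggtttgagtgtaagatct
RT1-Bb: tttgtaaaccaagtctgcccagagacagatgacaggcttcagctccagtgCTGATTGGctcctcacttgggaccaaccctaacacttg
RT1-DOa: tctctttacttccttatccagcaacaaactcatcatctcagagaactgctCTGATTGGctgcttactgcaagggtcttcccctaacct
The first capital lies 52, 83, 46, 64 and 110 bases before the annotated start, in that order. Counting both strands, 3.50% of all 33469 promoters of 300 bases (250 before the start to 50 after) hold these letters, and 6 of the 12 class II presentation genes with a promoter entry do. A match is a description of the letters, not evidence of binding.

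Of 5 genes on the B cell precursor list that could be tested, Vpreb3 and Cd24 rose in severe B cells, beside 1.16% higher among all genes tested. Myb, Lef1 and Smarca4 did not pass. All 5 had positive values, with a median log2 fold change of 2.58. Of the 18 listed genes in the file only these 5 passed the filter on low counts, which a high level in 1 library suffices to pass. Myb and Lef1 were at 3.25 and 14.1 CPM in sham library 1 and at 97.5 and 58.5 in severe library 1. The shared sign is therefore a description only. Vpreb3, a chaperone of the receptor's light chain in immature B cells, was at 40.1 CPM in sham library 1, 439 in severe library 1 and 143 in severe library 2. Its log2 fold change was 2.58 (SE 0.85, edgeR adjusted p = 0.0477). Cd24, a surface protein high on immature and transitional B cells, was at 37.9, 955 and 149 CPM (3.57, SE 0.97, edgeR adjusted p = 0.00708). Both severe libraries lay above sham library 1 for both genes, and severe library 1 stood highest. In all cells other than B cells Cd24 was at 5.11 CPM in sham library 1, 32.1 in severe library 1 and 16.7 in severe library 2. T cells had more Cd24 in the severe libraries too, as given below, so its rise was not particular to B cells. Myb, a factor of dividing progenitors, had 3 UMIs in sham library 1, 10 in severe library 1 and 9 in severe library 2, a ratio of 13.8 with a counting interval of 4.06 to 72.8 (edgeR adjusted p = 0.0504). Both calls depended on the limits of the rule, though the log2 fold changes stayed of similar size. With 2 UMIs of AABR07060872.1 edgeR gave 2.53 for Vpreb3 (adjusted p = 0.355) and 3.48 for Cd24 (adjusted p = 0.356). With the limit that scales with depth it gave 2.25 (adjusted p = 0.238) and 3.02 (adjusted p = 0.07). DESeq2 gave adjusted p of 0.371 and 0.0458, and without the cells of highest Scrublet score edgeR gave adjusted p of 0.0738 and 0.0216.

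At 1000 UMIs a cell, Vpreb3 was seen in 4.61% of B cells in sham library 1 (10 of 217, 95% Wilson interval 2.52 to 8.27%), 36.4% in severe library 1 (12 of 33, 22.2 to 53.4%) and 16.1% in severe library 2 (14 of 87, 9.83 to 25.2%). Without thinning the shares were 14.7, 51.4 and 34.5%. The intervals of both severe libraries lay above that of sham library 1. At 500 UMIs a cell the shares were 2.29, 22.9 and 4.60%, and there the intervals of sham library 1 and severe library 2 overlapped. At 1000 UMIs, 0 of 548, 0 of 444 and 0 of 2148 C1q-rich cells had a UMI of Vpreb3, which allows a share with a UMI of up to 0.547, 0.676 and 0.140%. Cd24 was seen in 3.69%, 36.4% and 8.05% of B cells at 1000 UMIs (9.63, 54.3 and 27.6% without thinning), and for it the intervals of sham library 1 (1.88 to 7.10%) and severe library 2 (3.95 to 15.7%) overlapped. In C1q-rich cells Cd24 was in 0.182% of cells of sham library 1 and in none of the severe libraries at 1000 UMIs.

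The surrogate light chain and the recombinase, which define B cell precursors, were almost absent. Vpreb1, Vpreb2, Igll1 or Rag1 had a UMI in 1 B cell of sham library 1, 2 of severe library 1 and 1 of severe library 2. Cd74 was present in every B cell of sham library 1 but had 0 UMIs in 5 of 35 B cells of severe library 1 and 2 of 87 of severe library 2. Those 5 cells held 9 of the library's 10 B cell UMIs of Myb, 54 of its 98 of Cd24 and none of RT1-Da, and still had Ighm at 1572 CPM. The 2 cells of severe library 2 held 6 of its 9 UMIs of Myb and 8 of its 48 of Cd24. Among the B cells with Cd74, Vpreb3 remained at 464 and 137 CPM in the severe libraries and Cd24 at 599.9 and 128, against 40.1 and 37.9 in sham library 1. This split by Cd74 was chosen after its values were seen and has no test.

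The promoter of Vpreb3, on chromosome 20 (chr20:12718245-12718332, minus strand, GRCr8), holds the octamer ATGCAAAT, the site of Oct factors and their B cell partner Pou2af1, in the opposite orientation. Of 15 precursor genes with a promoter entry it was the only one, and 1.78% of all promoters hold the octamer on either strand. Of 7 B cell markers with a promoter entry, 0 hold it. The stretch shown has the octamer's 8 bases in capitals, the first of them 56 bases before the start.
Vpreb3: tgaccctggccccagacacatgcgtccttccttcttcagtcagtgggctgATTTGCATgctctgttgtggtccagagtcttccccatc
Pou2af1 itself was at 79.1, 205 and 81.0 CPM in B cells of sham library 1, severe library 1 and severe library 2 (log2 fold change 0.57, SE 0.73, edgeR adjusted p = 0.927).

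Further genes rose in severe B cells at levels above the pooled level of all other cells in both severe libraries, 18 of the 49 called higher that have a symbol of their own. This set was formed after values were seen. Nrarp and Dtx2, both targets or partners of the Notch pathway, were among them. Nrarp was at 26.0 CPM in sham library 1, 234 in severe library 1 and 159 in severe library 2 (2.70, SE 0.82, edgeR adjusted p = 0.0233), and 24 and 51 UMIs came from 14 and 36 severe cells. Dtx2 was at 10.8, 146 and 77.9 (3.09, SE 0.85, edgeR adjusted p = 0.00733). Traf4, an adaptor of TNF receptors, was at 19.5, 312 and 140 (3.27, SE 0.86, edgeR adjusted p = 0.00452). Their signal was spread over many cells: no cell held more than 21.9% of a library's B cell UMIs of Traf4, 16.7% of those of Nrarp or 13.3% of those of Dtx2. Chrne, an acetylcholine receptor subunit, went from 2.17 CPM to 107 and 109, a ratio of 50.1 with a counting interval of 13.1 to 426 (edgeR adjusted p = 1.34e-05). T cells of these libraries had 7.14, 234 and 155 CPM of Chrne, so it was not particular to B cells.

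Of 11 heat shock proteins tested, 4 fell in severe B cells and 7 did not pass, beside 3.84% lower among all genes tested. The median log2 fold change of the 11 was -1.28. Hspa8 and Hspa5, the constitutive members of the cytosol and the endoplasmic reticulum, had positive values (0.25 and 0.05). Hspa1b, the inducible Hsp70, was at 4607 CPM in sham library 1, 19.5 in severe library 1 and 140 in severe library 2 (-5.83, SE 0.71, edgeR adjusted p = 1.22e-13). At 1000 UMIs it was seen in 80.2% of B cells of sham library 1, 6.06% of severe library 1 and 8.05% of severe library 2, and without thinning in 87.6, 5.71 and 11.5%. Hsph1, a co-chaperone of Hsp70, was at 1138, 283 and 140 CPM (-2.66, SE 0.78, edgeR adjusted p = 0.015). Hspe1, the mitochondrial Hsp10, was at 539, 127 and 68.5 (-2.70, SE 0.79, edgeR adjusted p = 0.0146). DESeq2 gave Hspa1b an adjusted p of 0.14. Hspb1, the small chaperone Hsp27, also fell (-2.77, SE 0.75, edgeR adjusted p = 0.00655).

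Hspa1b and Hsph1 were also high in other cells of sham library 1, and Hspe1 was not. In all cells other than B cells Hsph1 was at 679.7 CPM in sham library 1 and at most 246 in the other 7 libraries, while Hspe1 was at 193 CPM there and reached 223 in moderate library 1. Hspa1b was at 5159 CPM in its C1q-rich cells, against 554 and 540 in those of the severe libraries and 12.4 in those of sham library 2. At 1000 UMIs 65.0% of its C1q-rich cells held Hspa1b, against 23.6 and 22.7% in the severe libraries. The 38 B cells of the 5 thinly filled libraries had 5 Hspa1b UMIs in all, 71.5 CPM, and the 6 of sham library 2 had none. In T cells Hspa1b had a log2 fold change of -3.07 (SE 0.59, edgeR adjusted p = 0.0553). Whether the heat shock values of sham library 1 arose in the tissue or in its handling was not tested.

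Hspe1 and Hsph1 each hold an arrangement of the heat shock element on either strand, searched as GAA, TTC and GAA with 2 bases of any kind between them, as do 0.798% of all promoters and 5 of the 10 heat shock genes with an entry. The stretches of 93 bases are chr9:64084212-64084304 and chr12:10427282-10427374, both on the plus strand of GRCr8, with matching bases in capitals. Hspe1 has 2 overlapping matches.
Hspe1: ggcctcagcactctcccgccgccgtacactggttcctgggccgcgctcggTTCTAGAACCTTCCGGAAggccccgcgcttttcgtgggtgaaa
Hsph1: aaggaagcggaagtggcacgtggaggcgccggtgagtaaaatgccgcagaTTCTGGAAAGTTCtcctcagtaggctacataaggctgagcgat
The first capital lies 65 and 36 bases before the start. Both genes fell in severe B cells, as did Jun, the only one of 18 early activation genes that was called. Jun, a subunit of AP-1, was at 1887 CPM in sham library 1, 166 in severe library 1 and 265 in severe library 2 (-3.25, SE 0.75, edgeR adjusted p = 0.000539; 0.0959 with 2 UMIs of AABR07060872.1). Over the 38 B cells of the thinly filled libraries it was at 2101 CPM. In mild library 1, moderate library 1 and moderate library 2 it was at 1832, 4235 and 2128 CPM, all above the severe pair. The 2 B cells of mild library 2 held 0 UMIs of Jun, and the 6 of sham library 2 held 1. Fos and Egr1 did not pass (adjusted p = 0.653 and 0.941 in edgeR).

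Of 12 type I interferon response genes tested, 7 fell in severe B cells and 5 did not pass, beside 3.84% lower among all genes tested. All 12 had negative values, with a median log2 fold change of -3.56. Some, such as Oas1a and Ifitm3, had 0 UMIs in both severe libraries and passed the filter on low counts through sham library 1 alone. The shared sign and the median are therefore a description only. Isg15, a ubiquitin-like protein induced by interferon, had 202 UMIs in B cells of sham library 1 (219 CPM), 0 in severe library 1 and 3 in severe library 2, a ratio of 30.9 with a counting interval of 10.4 to 151 (edgeR adjusted p = 1.2e-06). Oas1a, a sensor of viral RNA, had 105 UMIs in sham library 1 and 0 in both severe libraries, at least 16.1-fold lower against a floor of 3 UMIs over both (edgeR adjusted p = 2.03e-07). Mx1, an antiviral GTPase, was at 149, 19.5 and 15.6 CPM (-3.26, SE 0.79, edgeR adjusted p = 0.0013).

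Mx1 and Mx2 differed from the others in where their signal lay. Mx1 was at 149 CPM in B cells of sham library 1 against 21.7 in its other cells, and Mx2 at 122 against 49.0. For Mx2, 1 cell held 37.2% of the 113 UMIs, and 29 of the 218 cells had a UMI. Isg15 was at 219 in B cells against 452 in other cells, and 1750 in S100a8/S100a9-rich cells. What RNA of S100a8/S100a9-rich cells contributes to the B cell values was not tested. Without the cells of highest Scrublet score, Mx1 kept a log2 fold change of -3.43 (adjusted p = 0.000978) and Ifit3 went from -4.10 to -1.95 (adjusted p = 0.723), both by edgeR. Isg15 went from -5.07 to -3.26 there (edgeR adjusted p = 0.0132). DESeq2 gave adjusted p of 0.0635 for Isg15 and 0.64 for Mx1, and with 2 UMIs of AABR07060872.1 edgeR gave 0.0722 for Mx1. In B cells of mild library 1, Mx1 was at 145 CPM on 5 UMIs, close to sham library 1.

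The promoters of 8 of 10 interferon response genes with an entry hold a core of the interferon-stimulated response element on either strand, searched as GAAA and GAAA with 2 bases of any kind between them, as do 3.92% of all promoters. Ifit3 (chr1:241527232-241527321) and Oas1a (chr12:41330375-41330464), both on the plus strand of GRCr8, are shown over 90 bases, because both fell in severe B cells and differ in the number of matches, 1 and 2 (overlapping). Capitals mark the matches.
Ifit3: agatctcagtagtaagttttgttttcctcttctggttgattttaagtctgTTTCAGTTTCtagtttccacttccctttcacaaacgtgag
Oas1a: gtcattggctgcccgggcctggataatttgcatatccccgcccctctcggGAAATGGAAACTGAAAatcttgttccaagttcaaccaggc
The first capital lies 44 bases before the start in Ifit3 and 41 in Oas1a.

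**Figure D4:**
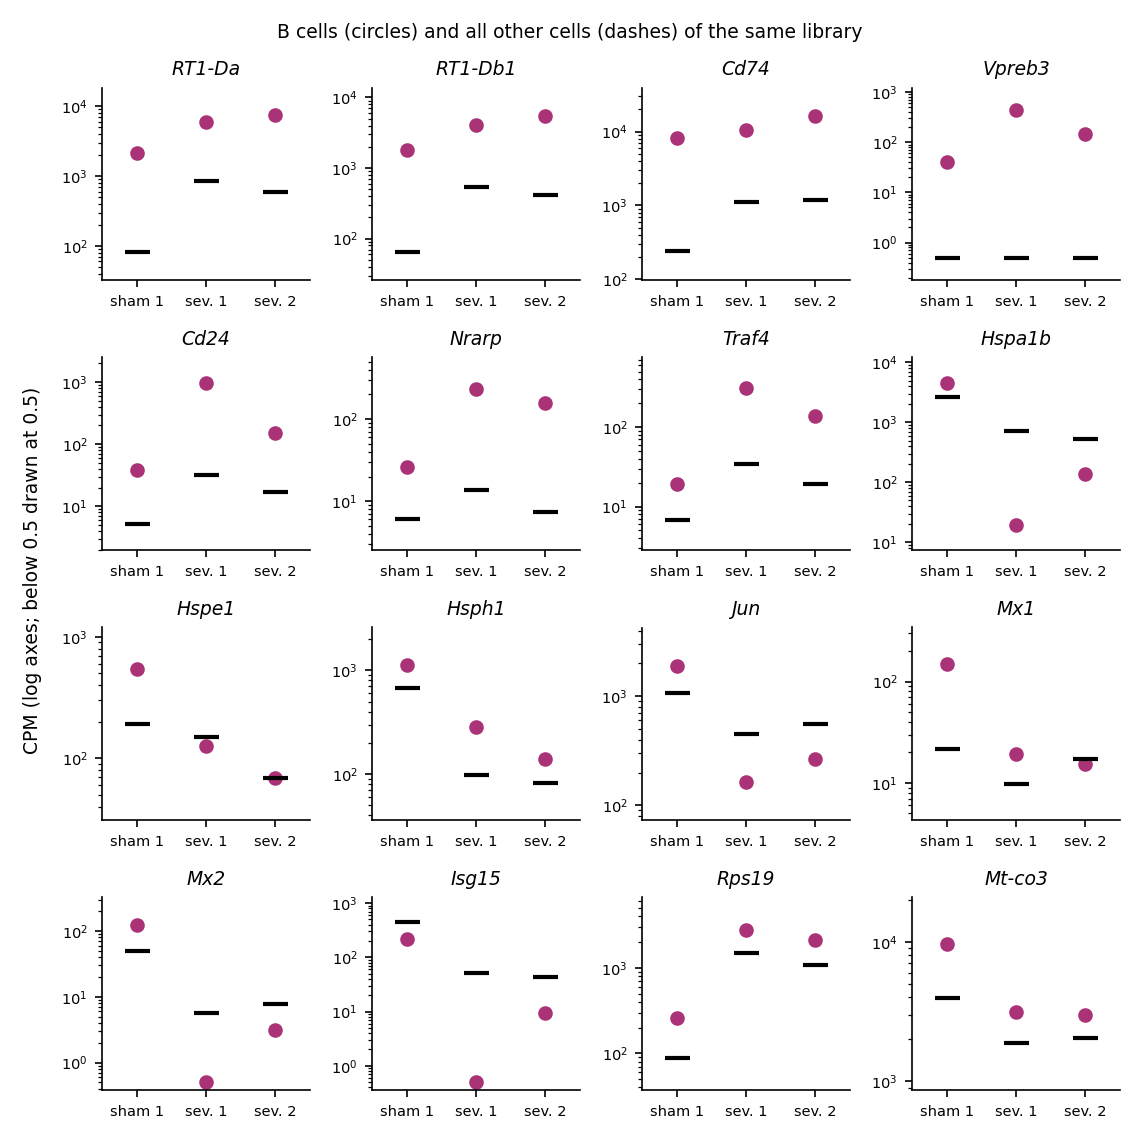
Levels of 16 genes (vertical axes, CPM on log axes) in B cells (circles) and in all other cells (dashes) of sham library 1, severe library 1 and severe library 2. RT1-Da, RT1-Db1, Cd74, Vpreb3 and Cd24 are higher in both severe libraries, Hspa1b, Jun, Mx1 and Mx2 are lower (levels under 0.5 are drawn at 0.5), and for RT1-Da, Vpreb3 and Cd24 the B cells lie above the other cells in all 3 libraries.

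The 20 genes with the largest changes among those with a mean of at least 50 CPM, and with both severe libraries on 1 side of sham library 1, were mostly genes of other cell types. The lower ones were Ptgds, AABR07034362.2, S100a9, Cldn11, S100a8, Mag, Klk6, Ifitm3, Retnlg and Mog. S100a9 had 15678 UMIs in B cells of sham library 1 (16980 CPM), 0 in severe library 1 and 2 in severe library 2, and a UMI in all 218 sham cells. Mag, a myelin glycoprotein, had 640 UMIs in sham library 1 and 0 in the severe libraries, at least 97.9-fold lower. Cldn11 (oligodendrocyte tight junctions) was at least 141-fold lower and Ptgds (prostaglandin D synthase) at least 232-fold. Of 9 neutrophil markers tested 8 fell, and of 8 oligodendrocyte markers 7 fell, beside 3.84% lower among all genes tested. Several of these, such as Retnlg, Mmp8, Lcn2, Cldn11, Mag and Mog, had 0 UMIs in both severe libraries. They passed the filter on low counts through sham library 1 alone. The counts of both lists are therefore a description only. Summed over B cells of sham library 1, severe library 1 and severe library 2, the 17 neutrophil genes in the file reached 25931, 29.2 and 318 CPM, with 4, 16 and 13 of them at 0.

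The higher ones were Trem2, RF00015, Apoc1, Apoe, Chrne, LOC100359539, Rgs1, Rgcc, Hist1h2an and Ccl4. Apoe, a lipid carrier of glia and macrophages, was at 138 CPM in sham library 1, 458 in severe library 1 and 20508 in severe library 2 (6.20, SE 0.60, edgeR adjusted p = 6.03e-22). Most of it came from few cells: 1 cell of severe library 2 held 56.0% of that library's 6585 UMIs and 3 cells held 96.5%. Trem2, a microglial lipid receptor, had 0, 1 and 55 UMIs, 92.7% of the latter in 3 cells. Among B cells of at most 10000 UMIs, which leaves 208, 34 and 82 cells, Apoe had a log2 fold change of 2.62 (edgeR adjusted p = 0.0218), and in all cells DESeq2 gave it an adjusted p of 0.824. Of 7 macrophage and microglia markers tested, 4 were called higher (Apoe, Spp1, Trem2 and Cd68), beside 1.16% of all genes tested. For Spp1 (96.4, 87.7 and 7222 CPM) and Cd68 (3.25, 0 and 274 CPM) severe library 1 lay below sham library 1, so that the rise was in severe library 2 alone. Trem2, with 0 UMIs in sham library 1, passed the filter on low counts through the severe libraries alone. The count of this list is therefore a description only. The 16 in the file summed to 900.0, 780 and 29891 CPM, with 2, 8 and 2 of them at 0.

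Set beside the other cells of their own library, most of these calls were lower in B cells than around them. Of 177 genes called lower in severe that have a symbol of their own, 152 had a lower level in the B cells of sham library 1 than in its other cells, and 25 had a higher one. S100a9 was at 16980 CPM in the B cells and 41027 in the other cells of that library. Of 49 genes called higher, 23 were below the other cells in both severe libraries, 8 in 1 of them and 18 in neither. The part that RNA of other cells has in these calls was not tested.

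**Figure D5:**
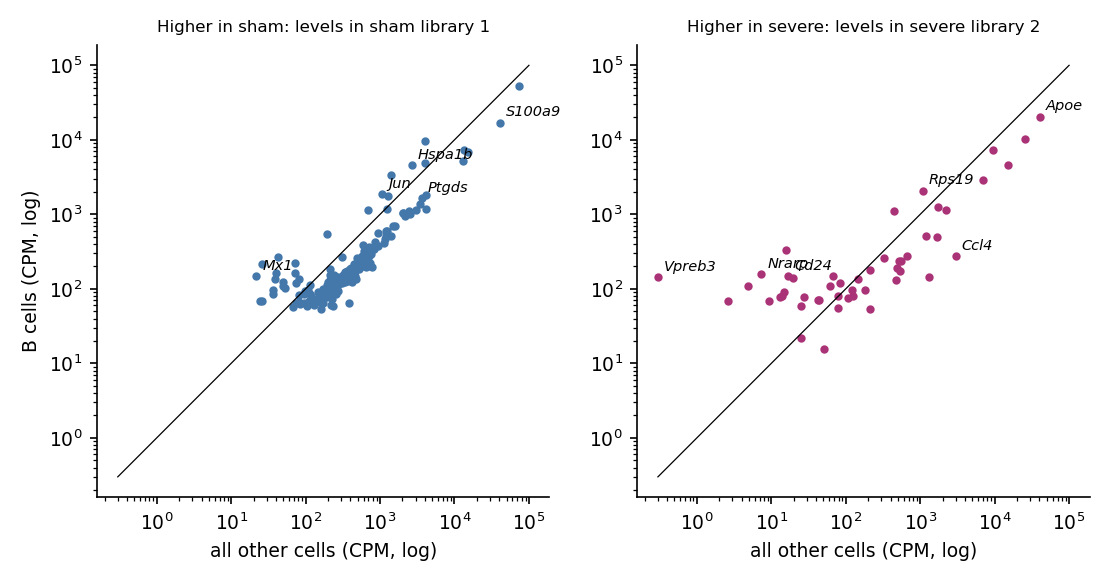
Level in B cells (vertical axis) against the level in all other cells of the same library (horizontal axis; both CPM, log axes) for the genes called between severe and sham, in sham library 1 for the genes higher there (left) and severe library 2 for those higher in severe (right). The line marks equal levels: S100a9 lies below it, Hspa1b, Jun and Mx1 above it on the left, and Vpreb3, Nrarp and Cd24 far above it on the right.

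Among markers that could point to other cells among those chosen, T cell and NK cell genes were low. Of 16 in the file, 13, 3 and 8 were detected, summing to 86.6, 48.7 and 125 CPM. At least 2 UMIs of Cd3d, Cd3e and Cd3g were held by 4, 1 and 1 of the B cells. Erythroid genes were at 304 CPM in sham library 1, at 0 in severe library 1 and at 10156 in severe library 2, led by the globin Hba-a2, whose 2 copies in the file share sequence and were both called higher. Of 13 dendritic cell genes, 3, 2 and 7 were detected. Bst2, which B cells also express, led that list in each library, at 102, 48.7 and 74.7 CPM.

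The 8 autophagy-related genes that the study selected on these samples were all testable in B cells. Birc5, an inhibitor of apoptosis also tied to cell division, rose (7.58 CPM in sham library 1, 68.2 in severe library 1, 56.1 in severe library 2; 2.81, SE 0.92, edgeR adjusted p = 0.0479), and 7 of 8 had positive values with a median log2 fold change of 0.87. As the list was chosen on these samples, its direction is not independent evidence. One cell held 57.1% of the Birc5 UMIs of severe library 1. Hspa8, Hspa5, Ctsb, Hdac1, Cxcr4, Vegfa and Eif2ak2 did not pass. Mki67, a marker of cycling cells, had a UMI in 5 of 218, 1 of 35 and 2 of 87 B cells. Birc5 was the only one called of the 6 genes tested from the list of germinal centre and cell cycle genes. Among all genes tested 1.16% were called higher, and 1 call among 6 or among 8 genes is not read as a result about either list. Cks2, a subunit of cell cycle kinases outside both lists and chosen after its values were seen, was at 43.3, 643 and 137 CPM (2.88, SE 0.91, edgeR adjusted p = 0.0336).

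Of 77 ribosomal protein genes tested, Rps19 rose and Rps15 fell. Among all genes tested 1.16% were higher and 3.84% lower, so the list lay near or below those shares. Rps19 went from 258 CPM in sham library 1 to 2787 and 2087 in the severe libraries (3.05, SE 0.79, edgeR adjusted p = 0.00351), and its level in all other cells rose likewise from 88.4 to 1504 and 1085. Mt-co3, a mitochondrially encoded oxidase subunit, was at 9593, 3129 and 2984 CPM (-1.82, SE 0.45, edgeR adjusted p = 0.00199), and in all other cells at 3971, 1873 and 2050.

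B cells and T cells were then compared in the same 3 libraries, to see where the B cell difference departed from that of T cells. Cells with at least 2 UMIs of Cd3d, Cd3e and Cd3g numbered 408 in sham library 1, 246 in severe library 1 and 289 in severe library 2. Of these, 398, 189 and 236 were used as T cells. In T cells 94 of 8482 genes tested (1.11%) were called. The change in B cells beyond that in T cells passed for 0 of 4658 genes (0%; limma with Benjamini-Hochberg adjustment), and 136 had an unadjusted p under 0.05. Nrarp changed by 2.67 in B cells and 0.90 in T cells on the log2 scale, a difference of 1.77 (SE 0.53, limma adjusted p = 0.997). For Vpreb3 the difference was 2.65 (SE 0.74, limma adjusted p = 0.997), and for Mx1 -1.89 (SE 0.57, limma adjusted p = 0.997). Cd24 changed by 3.17 in B cells and 3.49 in T cells. On simulated data this test did not reach its threshold even for large changes, so the count of 0 says nothing about whether B cells and T cells differed.

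Factors that other cells supply to B cells were read in all cells other than B cells. Tnfsf13b (BAFF, the survival factor) was lowest in sham library 1, at 5.18 CPM, and highest in sham library 2, at 39.4, with a median of 21.1 over the 8 libraries. Cxcl13, the chemokine that gathers B cells into follicles, was at 40.4 and 17.4 in the sham libraries and at 26.0 in mild library 1, and at 2.51 and 2.53 in the severe ones. Ccl20, which attracts cells bearing Ccr6, was at 96.8 in sham library 1 and at most 5.82 in the others. The library with the most B cells thus had the most Cxcl13 and Ccl20 and the least Tnfsf13b, with no test over so few libraries.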

How the data were processed

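Spinal cord cells of 8 libraries were measured by 10x Genomics 3' single-cell RNA sequencing. The deposited files hold whole-number UMI counts per gene and cell, not normalized, which the authors made with Cell Ranger (5.0.1 per the file headers) on Rnor_6.0; Seurat is named in the submitters' notes. UMIs were summed over the B cells of each library and tested with edgeR 4.0.16 (quasi-likelihood, TMM, filterByExpr) in R 4.3.3. The package limma 3.58.1 served for B cells beside T cells, and DESeq2 1.42.0 as an alternative. In edgeR the p-values rest on a spread between libraries shared across genes, not on each gene's own spread. Benjamini-Hochberg adjustment ran over all genes tested. The scripts were tested on simulated data. There the edgeR test recovered 1 of 46 genes changed 2-fold and 1 of 42 changed 4-fold. It recovered 12 of 41 changed 8-fold and 27 of 43 changed 16-fold. A gene that did not pass can therefore still differ by several fold. C1q-rich cells had at least 20 UMIs of C1q, and S100a8/S100a9-rich cells at least 100 UMIs of those genes. Levels are summed UMIs in CPM of the same cells, a fold change is a log2 value, and comparisons of cell shares used cells thinned to 1000 UMIs. Genes named were those of lists written for this tissue, plus 10 rises and 10 falls of largest size past an adjusted p of 0.05 with a mean of at least 50 CPM and both severe libraries on 1 side of sham library 1. The members and lists were chosen with earlier results of these data known. UMIs reduce but do not remove counting error, and intervals cover that error only. Alternatives changed the limits on cells, the scaling, the gene filter and the tool. Scrublet ran in scanpy 1.11.5. Promoters are those of RefSeq. Some genes of the lists are not reported here.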

Additional observations from a re-analysis of the deposited data

How the results depend on the processing

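Against 233 genes called between severe and sham B cells, DESeq2 called 50 (8 higher, 42 lower; 49 shared with the 233), a limit of 2 UMIs of AABR07060872.1 called 71 (2 higher; 67 shared), and a limit scaling with depth (at least 2 UMIs and 0.1% of the cell's UMIs) called 147 (130 shared). The injured comparison gave the same 50, 71 and 147, and 150 (15 higher) once libraries with at least 10 B cells entered. The fits on all libraries with any B cell, with and without a block, and on cells of at most 10000 UMIs were chosen after seeing the data. All libraries with any B cell gave 0 calls among 488 genes for severe and 3 for all injured libraries. Cells of at most 10000 UMIs gave 163, of which 104 were shared with the 233; there Mbp reversed from -2.43 to 0.12 (edgeR adjusted p = 0.964). Library size alone, no filter on low counts, totals without antibody genes, C1q at 0 UMIs, a mitochondrial limit of 20%, leaving out cells of high Scrublet score or of at least 5% AABR07060872.1 (no B cell had that), and the sham and severe libraries alone gave between 159 and 245. The change beyond T cells gave 0 calls by limma with a pseudocount of 1 and with the scaled limit (119 and 85 genes at an unadjusted p under 0.05), which says nothing about stability, since that test could not reach its threshold on simulated data.

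A replicate block, pairing libraries by number, could be fitted only on all libraries with any B cell, where it gave 0 calls for severe and 2 for injured libraries; whether the numbers pair animals is not given. With 3 libraries neither that block, leaving out any 1 library, a minimum of 50 B cells nor a limit of 20 UMIs of AABR07060872.1 left a spread to test against, so those fits were not run. The B cell share of sham library 1 was 2.5% with a limit of 2 UMIs of AABR07060872.1, 0.401% with 20 and 1.28% with C1q at 0. With 20 UMIs the severe libraries had 0.260 and 0.578%, and with C1q at 0 severe library 2 had 0.578%. So the order of sham library 1 and severe library 2 turned at 20 UMIs. Depth limits the rest: with 102602 UMIs in severe library 1, 3 UMIs equal 29.2 CPM.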
